A study of Mus musculus with 9 samples.

Results

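Matricellular and elastic fibre genes were described in cultured murine astrocytes that lack Ink4a, a tumour suppressor that restrains the cell cycle. The genes are Tnc, Thbs1, Thbs2, Sparc, Postn, Fn1, Fbn1, Fbln2 and Eln. Of these 9 genes, 8 had a ratio in both of the authors' deposited tables, out of 18182 genes that did, and Eln, the elastin gene, is not analysed here. All groups were Ink4a-/- brain astrocytes grown in high-glucose medium with serum. The libraries labelled JICD1 came from cells transfected with a puromycin vector for HA-tagged JICD1, which is the cytoplasmic end of the Notch ligand Jagged1. NICD1 libraries came from cells given a vector for the intracellular part of the receptor Notch1, and control libraries from cells given the empty vector. Each of the 3 groups had 3 libraries, and nothing in the labels says whether they came from separate cultures or how the cells had been isolated.

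Matricellular proteins are secreted into the matrix but act mainly as signals and adaptors between matrix, growth factors and cell-surface receptors, rather than as load-bearing fibres. Elastic fibres are laid down on fibrillin microfibrils, with fibronectin as an early scaffold and fibulins as linkers. In brain, astrocytes are known to secrete thrombospondins and SPARC, which act on synapses, and tenascin-C and fibronectin are known from glioma and from reactive tissue.

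For each construct over control, the authors' deposited tables give a log2 ratio and a score that runs between 0 and 1. They give no value per library, so the ratios carry no replicate error or p-value and their depth is unknown. Whether any difference is larger than the spread between replicates could not be tested, and higher and lower describe the sign of a ratio. A gene is called scored where its score was at least 0.8. The score is not a p-value, its method is not stated, and the threshold was chosen with results of these data known. Jag1 had a log2 ratio of -1.39 in the libraries labelled JICD1 and 1.36 in the NICD1 libraries in the authors' deposited tables, so the gene of the ligand was lower, not higher, in the libraries labelled JICD1. Notch1 had log2 ratios of 1.33 with JICD1 and 1.77 with NICD1 in the authors' deposited tables. The constructs encode fragments, and whether reads from them add to these values was not given in the sources used here. Of 11 astrocyte markers 10 had a ratio in both tables, but a ratio gives no level, so the labelled cell type could not be checked against marker levels.

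The 8 genes lie on different chromosomes but for Thbs1 and Fbn1, both on chromosome 2. For Tnc (chromosome 4), Thbs2 (chromosome 17) and Fn1 (chromosome 1) the authors' deposited tables name the gene. For the other 5 the tables describe the entry by 1 Ensembl transcript with coordinates on GRCm38, although the submitters' processing notes name mm9. These transcripts are chr2:118122940-118123764 for Thbs1, chr2:125389756-125506072 for Fbn1, chr3:54388889-54390393 for Postn, chr6:91265879-91272431 for Fbln2 and chr11:55409204-55419900 for Sparc. GENCODE vM21 lists all 5 as retained-intron transcripts of these protein-coding genes. Whether their ratios count reads of the whole gene or of that transcript was not given in the sources used here.

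Promoter sequences are shown for Tnc and Fbn1, because Tnc had the largest ratio among the 8 genes and both windows hold the longer of the RBPJ letter strings searched. RBPJ is the DNA-binding partner through which NICD1 acts. Each window runs from 250 bases before to 50 bases after a RefSeq start site, written 5′ to 3′ on the gene's strand, and capitals mark GTGGGAA. The Tnc window shown is chr4:64046966-64047265 and the Fbn1 window chr2:125506389-125506688, both on the minus strand of GRCm38.p6. Tnc has a further, overlapping window for another start site, chr4:64046887-64047186, which is not shown. The same GTGGGAA begins at -82 from that start site, against -3 in the window shown.
Tnc: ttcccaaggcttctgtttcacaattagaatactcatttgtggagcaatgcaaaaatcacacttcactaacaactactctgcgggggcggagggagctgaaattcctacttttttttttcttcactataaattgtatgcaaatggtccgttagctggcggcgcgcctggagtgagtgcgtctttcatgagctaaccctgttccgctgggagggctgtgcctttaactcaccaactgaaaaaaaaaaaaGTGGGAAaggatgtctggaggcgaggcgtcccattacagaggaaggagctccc
Fbn1: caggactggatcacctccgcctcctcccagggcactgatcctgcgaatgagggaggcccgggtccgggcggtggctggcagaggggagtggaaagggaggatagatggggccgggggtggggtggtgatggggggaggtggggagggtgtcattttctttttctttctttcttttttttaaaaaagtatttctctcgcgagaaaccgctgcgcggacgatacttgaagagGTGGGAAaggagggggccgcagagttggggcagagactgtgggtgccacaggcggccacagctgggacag

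A RefSeq window was matched for 6 of the 8 genes, namely Tnc, Thbs2, Sparc, Postn, Fbn1 and Fbln2, with 8 windows in all. On either strand GTGGGAA was found for 2 of these 6 genes, Tnc and Fbn1, and in 6.38% of the 32851 windows of all genes. Its shorter core TGGGAA, which lies within the longer string, was found for the same 2 genes and in 25.6% of all windows. The Tnc window shown holds a further copy of the core on the opposite strand at its first base, which the other Tnc window lacks. A TATAAA string was present for Tnc, Thbs2 and Postn, against 13.6% of all windows. The SMAD half-site CAGACA was present for Tnc, Sparc and Thbs2, against 21% of all windows, and the Snail and Zeb string CAGGTG for Sparc, against 20.2%. These matches are named by gene, while the shares of all genes are by window, and Tnc and Postn have more than 1 window. By window, GTGGGAA and TGGGAA were each in 3 of the 8, TATAAA and CAGACA each in 4, and CAGGTG in 1. The AP-1 string TGANTCA, the TEAD string GGAATG and the SMAD palindrome GTCTAGAC were in none of the 8 windows, and in 7.81%, 14.7% and 0.213% of all windows. These strings were chosen with the ratios known, and a match describes letters in a window, not a bound site.

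In the libraries labelled JICD1, 7 of the 8 genes lay below control and 1, Fbln2, above it. Of all genes in that table, 45.5% lay below 0. Thbs1, Fn1 and Fbn1 were scored lower, and none of the 8 was scored higher. Over all genes 1.74% were scored lower and 1.07% higher. With a score of 0.9 or more, 0 of the 8 were called, and the share of all genes was not counted. Whatever the score, 5 of the 8 had an absolute log2 ratio of at least 1, as did 28.9% of all genes. The median log2 ratio of the 8 genes was -1.08, against 0.05 for all 18971 genes. In bulk RNA, fewer cells of a type and less RNA per cell cannot be told apart. All 7 fibroblast and pericyte markers with a ratio also lay below control, 5 of them scored lower, with a median of -2.36. Microglia markers lay below control for 5 of 6, with 1 scored lower and a median of -1.70, and smooth muscle markers for 5 of 6, with 1 scored lower and a median of -0.52. Astrocyte markers were mixed, 6 of 10 below control with a median of -0.65. Of these Nfia (3.77) was scored higher and Clu (-3.88) scored lower in the authors' deposited table. Endothelial, neuron and oligodendrocyte markers each lay above control for 3 of 5. Of the neuron markers 1 was scored higher and 1 lower, and no endothelial or oligodendrocyte marker was scored. The part of any of these cell types in the ratios of the matrix genes was not tested.

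In the NICD1 libraries all 8 genes lay above control, where 48.5% of all genes did. Tnc and Thbs1 were scored higher, and none of the 8 was scored lower. Over all 19287 genes 1.64% were scored higher and 0.97% lower. Whatever the score, 3 of the 8 had an absolute log2 ratio of at least 1, as did 28.7% of all genes. The median log2 ratio of the 8 genes was 0.64, against -0.02 for all genes, and their mean was 1.58. The 5 matricellular genes had a median of 1.78, with 2 scored, and the 3 genes of the elastic fibre and its scaffold a median of 0.45, with none scored. With a score of 0.9 or more, 1 gene was called, Tnc, and the share of all genes was not counted. Of the marker lists, microglia lay above control for 5 of 6 (median 0.88, none scored) and smooth muscle for 4 of 5 (median 0.88, 2 scored higher). Endothelial markers lay above control for 3 of 5, oligodendrocyte for 4 of 5 and neuron for 3 of 4, with 3 neuron markers scored higher and 1 lower. Fibroblast and pericyte markers lay below control for 5 of 8, with a median of -1.54, 2 scored lower and 1 scored higher. Astrocyte markers lay below control for 7 of 10, with a median of -0.59. Of the astrocyte markers Clu (-2.30) and Sox9 (-1.64) were scored lower and none higher in the authors' deposited table. The part of these marker lists in the ratios of the 8 genes was not tested. Both comparisons use the same control libraries, so the ratios of the constructs share any deviation of that control.

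**Figure D1:**
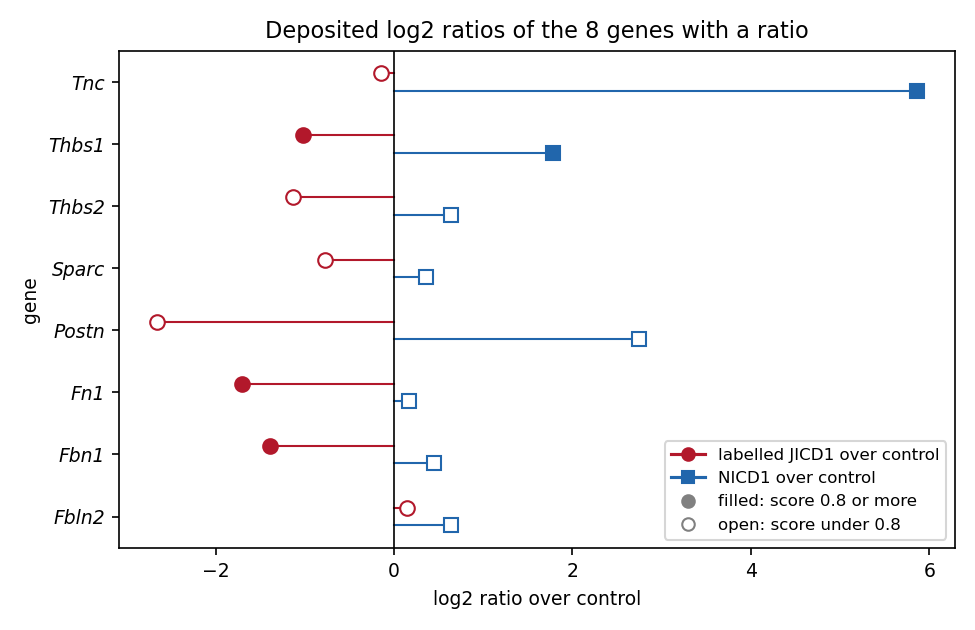
Log2 ratios over control (x axis) of the 8 genes (y axis) from the authors' deposited tables, with circles for the libraries labelled JICD1 and squares for NICD1, and filled symbols for a score of 0.8 or more. Circles lie below 0 for 7 genes and squares above 0 for all 8, with Tnc at 5.86 the farthest point.

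Tnc encodes tenascin-C, a matricellular glycoprotein that loosens adhesion to fibronectin and is abundant in the developing brain, in wounds and in glioma. In the libraries labelled JICD1 its log2 ratio was -0.15 (score 0.203) in the authors' deposited table. In the NICD1 libraries it was 5.86 (58.1-fold higher, score 0.992) in the authors' deposited table. Only 123 of 19287 genes had a larger NICD1 ratio. Its NICD1 score was above that of 99.7% of the 300 genes nearest to it in absolute ratio, whereas its score in the JICD1 table was above that of 13.7% of such genes. This share compares scores at a like ratio and does not measure the size of a change. Tnc therefore stood near the top of one table and in the middle of the other.

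The thrombospondins are matricellular proteins that bind CD47 and CD36, and thrombospondin-1 also releases active TGF-beta from its latent complex. Thbs1 had a log2 ratio of -1.02 (2.03-fold lower, score 0.810) in the libraries labelled JICD1 in the authors' deposited table. With NICD1 it stood at 1.78 (3.45-fold higher, score 0.870) in the authors' deposited table, so it was scored in both tables with opposite signs, and none of the other 7 genes was. Its paralog Thbs2, which limits angiogenesis and shapes collagen fibrils, had ratios with the same signs. Thbs2 stood at -1.13 with JICD1 and 0.64 with NICD1, with scores of 0.349 and 0.320, in the authors' deposited tables. The JICD1 ratio of Thbs2 was thus no nearer to 0 than that of Thbs1, while its score was lower. Among the 300 genes nearest in ratio in the JICD1 table, 58% had a lower score than Thbs2, against 99% for Thbs1.

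Sparc encodes a collagen-binding glycoprotein that, in astrocytes, is known to oppose the synapse-promoting action of its relative Sparcl1. Its log2 ratios were -0.77 with JICD1 and 0.35 with NICD1, with scores of 0.769 and 0.660, in the authors' deposited tables. Neither was scored. In both tables its score was above those of at least 98.7% of the 300 genes nearest in absolute ratio. A high share of this kind is no sign of a large change, since Fbln2 reached 96.3% with JICD1 at a ratio of 0.15.

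Postn encodes periostin, a matricellular protein that binds integrins and tenascin-C and aids collagen cross-linking. Ratios of similar size and opposite sign were found for it, -2.65 with JICD1 (6.28-fold lower) and 2.74 with NICD1 (6.70-fold higher), in the authors' deposited tables. Its scores of 0.297 and 0.565 in the authors' deposited tables left it unscored in both. They were above those of 61.3% and 84% of the 300 genes nearest in absolute ratio. Postn had the lowest JICD1 ratio of the 8 genes and the second highest NICD1 ratio, after Tnc.

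**Figure D2:**
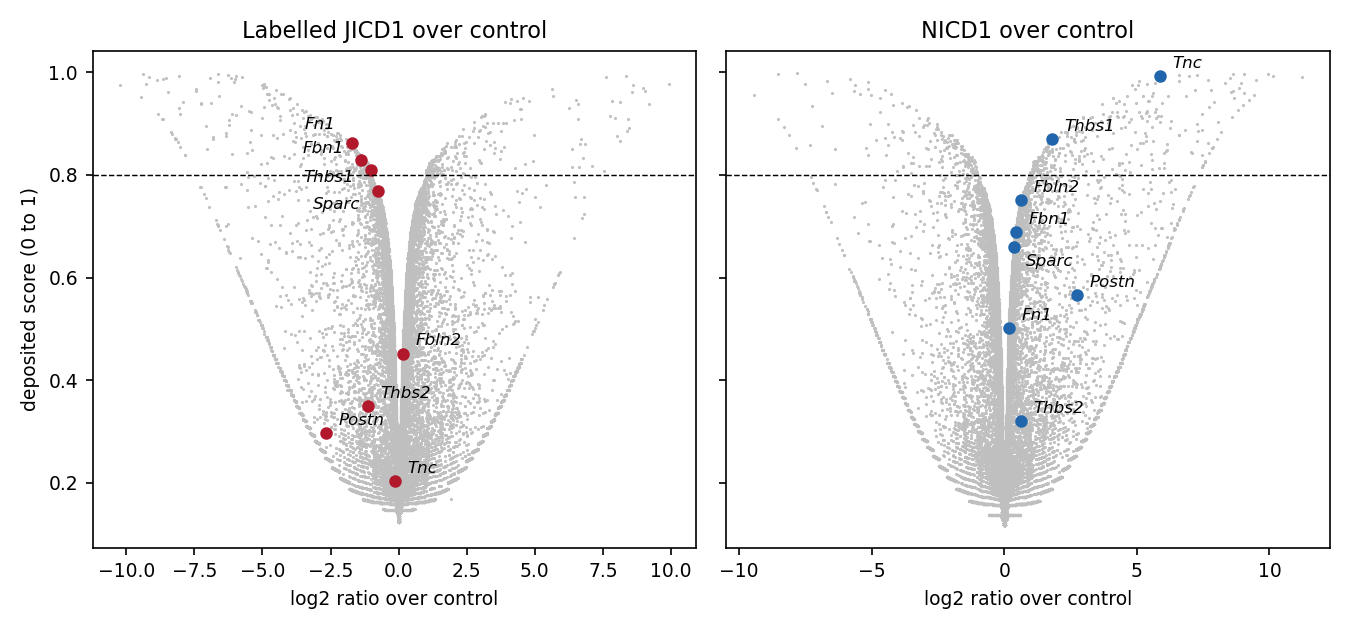
Deposited score (y axis, 0 to 1) against log2 ratio over control (x axis) for all genes (grey points) and the 8 genes (coloured, named) in the libraries labelled JICD1 (left) and NICD1 (right), with a dashed line at a score of 0.8. Fn1, Fbn1 and Thbs1 lie above the line on the left, Tnc and Thbs1 on the right, and Postn lies far from 0 but under the line in both.

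Fn1 encodes fibronectin, the adhesive glycoprotein on which collagens and fibrillin microfibrils assemble. It was 3.26-fold lower in the libraries labelled JICD1, with a log2 ratio of -1.71 scored 0.862 in the authors' deposited table. With NICD1 its ratio was 0.17 and its score 0.502 in the authors' deposited table. The JICD1 score of Fn1 was above those of all 300 genes nearest to it in absolute ratio. With NICD1 Fn1 also scored above 99% of such genes, at a ratio of only 0.17. Its ratios thus contrast with those of Tnc: Fn1 was far from control with JICD1 and near control with NICD1.

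Fbn1 encodes fibrillin-1, the main component of microfibrils, which also tether latent TGF-beta. Its log2 ratio was -1.39 with JICD1 (2.61-fold lower, score 0.830) and 0.45 with NICD1 (1.37-fold higher, score 0.689) in the authors' deposited tables. Fbln2, the gene of a fibulin that binds fibronectin, fibrillin-1 and tropoelastin, was the 1 gene above control with both constructs. It stood at 0.15 with JICD1 and 0.64 with NICD1, with scores of 0.452 and 0.751, in the authors' deposited tables. Of the 3 genes of the elastic fibre and its scaffold, Fn1 and Fbn1 were scored with JICD1 and none was with NICD1. Of the 5 matricellular genes 1 was scored with JICD1 and 2 with NICD1. Over all genes 1.74% were scored lower and 1.07% higher with JICD1, and 0.97% and 1.64% with NICD1. These counts are small and hang on the cut of 0.8. With JICD1 Thbs1 (0.810) and Fbn1 lay just over it and Sparc (0.769) just under. No test of these groups of genes against each other was possible.

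Subtracting the ratios removes the shared control and sets the constructs against each other, with no score. For all 8 genes JICD1 minus NICD1 was below 0, as it was for 43.7% of 18182 genes. Of the 8 genes 7 differed by a log2 of 1 or more, all lower, where 13.6% of all genes were lower by that much and 10.6% higher. The median difference was -1.85, against 0.04 for all genes. Microglia markers were lower with JICD1 for all 6 (median -4.07, 5 by at least 1) and smooth muscle markers for all 5 (median -1.42, 3 by at least 1). Of the microglia markers 1 was scored with JICD1 and none with NICD1, and Aif1 with JICD1 had a group at the floor described below. Fibroblast and pericyte markers were lower for 4 of 7, with a median of -1.93. Astrocyte markers were lower for 5 of 10, endothelial for 3 of 5, neuron for 3 of 4 and oligodendrocyte for 2 of 5. The part of these lists in the difference was not tested. Tnc differed by -6.01, Postn by -5.39 and Thbs1 by -2.80, and 101 genes had a lower difference than Tnc. Fn1 (-1.87), Fbn1 (-1.84) and Thbs2 (-1.77) lay close together, followed by Sparc at -1.13, and with no replicate error their order is not established. Fbln2 had the smallest difference, -0.49. The sources of these differences varied. For Fn1 and Fbn1 most of the distance lay below control with JICD1, and for Tnc nearly all of it above control with NICD1. For Postn it lay evenly on both sides, but Postn was unscored in both tables.

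**Figure D3:**
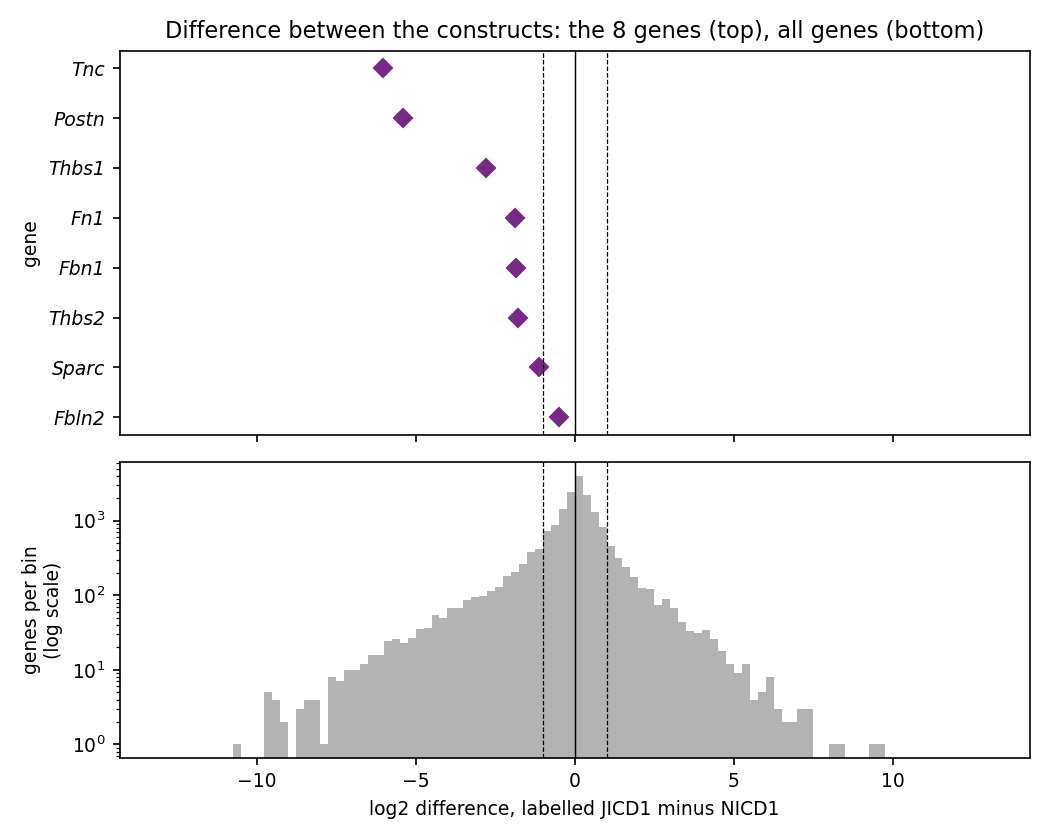
Log2 difference of the libraries labelled JICD1 minus NICD1 (x axis) for the 8 genes (top, diamonds) and the number of genes per bin on a log scale for all genes with both ratios (bottom, bars), with dashed lines at a difference of 1 either way. All 8 diamonds lie left of 0, and 7 lie beyond the left dashed line.

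The wider family was read from lists that leave out the 8 genes and Eln. A group with hardly any reads appears to have been set to a small fixed value, the floor, which was inferred from ratio and score. In each comparison this placed 2 of the further matricellular genes, 1 of the elastic fibre genes and 1 of the receptor genes with a group at the floor, so the list medians include ratios with no true size. Among the markers, Dcn, Myocd, Aif1 and Sox10 had a group at the floor with JICD1. With NICD1 the same held for Rgs5, Slc1a2 and Sox10, so the marker medians given above carry this limit too. Of 22 further matricellular genes 18 had a JICD1 ratio, 13 below control, with 4 scored lower, none scored higher and a median of -0.80. Of all genes 45.5% lay below control with JICD1, 1.74% were scored lower and 1.07% higher. Mgp, the matrix Gla protein that inhibits calcification, stood at -3.83, and Spp1, the osteopontin gene, at -1.45 in the authors' deposited table. Tgfbi, a relative of Postn with the same fasciclin domains, stood at -4.88 and Ccn2, the connective tissue growth factor gene, at -4.01 in the authors' deposited table. With NICD1 18 of the 22 had a ratio, 11 above control, with 2 scored higher, 2 scored lower and a median of 0.58. Of all genes 48.5% lay above control with NICD1, 1.64% were scored higher and 0.97% lower. The scored genes with NICD1 were Ccn5 (2.10) and Ccn4 (0.98) above, and Tgfbi (-2.92) and Mgp (-2.05) below, in the authors' deposited table. Postn (2.74, unscored) and its relative Tgfbi (scored) thus had opposite signs with NICD1. Sparcl1, the counterpart of Sparc, had ratios of -4.44 with JICD1 and -2.02 with NICD1, unscored at 0.433 and 0.332, in the authors' deposited tables; it was named after its values were seen.

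Of 24 further elastic fibre genes 20 had a JICD1 ratio, 15 below control, with 4 scored lower, none scored higher and a median of -0.44, beside 45.5%, 1.74% and 1.07% of all genes below control, scored lower and scored higher. Fbln1, the gene of another fibulin, had the lowest of them at -8.02 in the authors' deposited table, where Fbln2 stood at 0.15. Emilin1, which encodes a glycoprotein of the elastin and microfibril interface, stood at -3.22 in the authors' deposited table. The cross-linking enzymes Lox and Loxl2 were the other scored members, at -4.24 and -3.38 in the authors' deposited table. With NICD1 21 had a ratio, 11 above control, with 4 scored higher, none scored lower and a median of 0.25. The count above control is near the 48.5% of all genes, of which 1.64% were scored higher and 0.97% lower. Emilin2 stood at 5.34 (40.6-fold higher), Ltbp2, a microfibril-binding protein gene, at 3.66 and Fbln5, a fibulin needed for elastic fibre assembly, at 2.42 in the authors' deposited table. Fbn2, the fibrillin of developing tissue, had a NICD1 ratio of 7.84 in the authors' deposited table. Ratio and score place its control at the inferred floor, by a curve drawn from negative ratios alone, and a fold is left out. Among the fibulins, Fbln1 stood at -1.50, Fbln2 at 0.64 and Fbln5 at 2.42 with NICD1 in the authors' deposited table, and only Fbln5 was scored there.

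Among 15 receptor genes for these proteins, 12 lay below control with JICD1, 3 scored lower and none higher, with a median of -0.82, where 45.5% of all genes lay below control, 1.74% were scored lower and 1.07% higher. Itga5, a chain of the main fibronectin receptor, stood at -1.94 (score 0.870) in the authors' deposited table, where its ligand gene Fn1 stood at -1.71. Itgb5, a chain of a vitronectin and periostin receptor, stood at -1.60 and Stab1, the gene of a scavenger receptor for SPARC, at -4.46 in the authors' deposited table. With NICD1 14 had a ratio, 10 of them above control and 4 below, with a median of 0.53, where 48.5% of all genes lay above control, 1.64% were scored higher and 0.97% lower. Stab1 was the 1 scored receptor there, lower at -2.44 in the authors' deposited table.

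**Figure D4:**
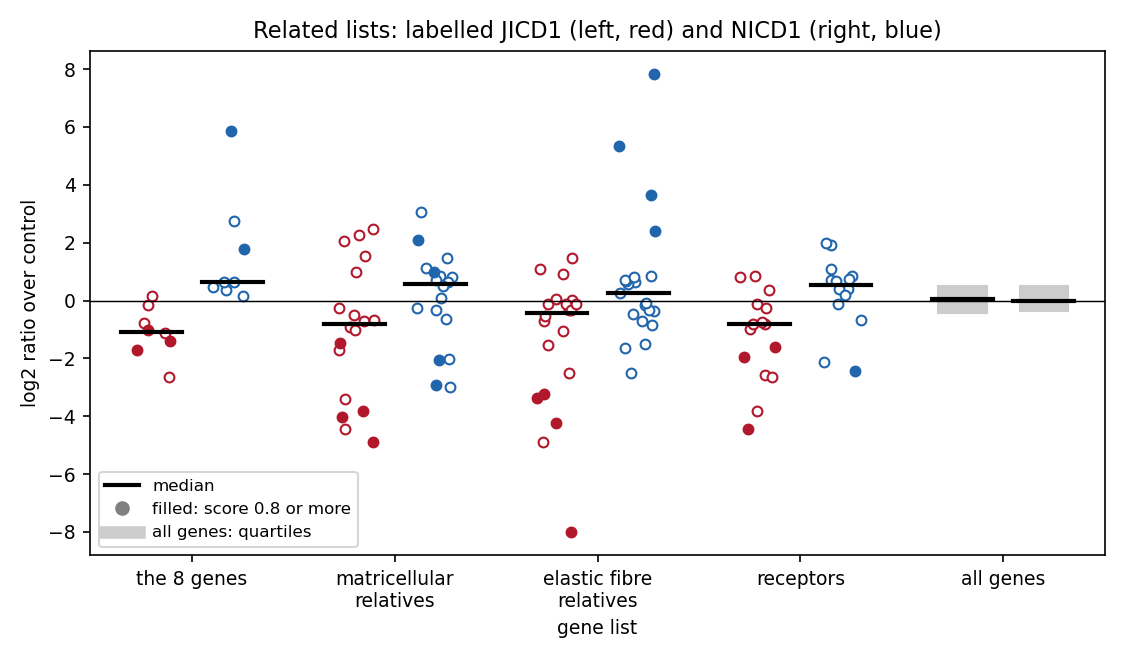
Log2 ratios over control (y axis) of the 8 genes and of the related lists (x axis), with the libraries labelled JICD1 on the left of each pair in red and NICD1 on the right in blue, filled points for a score of 0.8 or more, thick lines for medians and grey boxes for the quartiles of all genes. In each of the 4 lists the JICD1 median lies below 0 and the NICD1 median above it, while single genes spread widely on both sides.

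The genes most like each scored member were sought by distance over the 2 log2 ratios, among 820 other genes that were scored in at least 1 table. Nearest to Tnc was Gfra2, a GDNF family receptor gene, at -0.16 with JICD1 and 5.80 with NICD1 in the authors' deposited tables, a distance of 0.07. Gpr176 and Stxbp2 followed at 0.35 and 0.36. Nearest to Thbs1 were Kdm5b, Ctsc and the collagen gene Col1a1, the last at -1.19 with JICD1 and 1.74 with NICD1 in the authors' deposited tables. Fn1 had Ctxn1, Tuba1a and Agrn, the gene of the matrix proteoglycan agrin, as its nearest genes, with distances from 0.09 to 0.17. Fbn1 had Klhl30, the growth factor receptor gene Fgfr1 and Ccdc80, with distances from 0.12 to 0.15. Likeness over 2 values that share a control is a description of position in these tables.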

How the data were processed

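Per the submitters' processing notes, the tools were Bowtie2 and BWA and the build mm9, and no version or role is named. Read counting, and the pooling of 3 libraries into 1 value per group, are steps not given in the sources used here. Per the file headers, the authors deposited a log2 ratio of each construct over control and a score called Probability. The tables held 0 unused columns of values per sample. With no value per library, depth is unknown and no replicate test could be fitted.

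Genes were matched by the table's symbol (Tnc, Thbs2, Fn1) or by NCBI GeneID through RefSeq and GENCODE vM21 names (the other 5). Across all genes, 98% of IDs were matched in each table. The members, lists, motifs and score threshold of 0.8 were chosen with earlier results of these data known. Named were all 9 genes, up to 4 scored genes per related list and table by absolute ratio, and the 3 nearest genes to each scored member. Of the markers only some of the scored ones are named, with a few unscored ones. A group was inferred to lie at a floor where ratio and score fell on a curve, and none of the 8 genes did. The curve came from the 694 genes with equal negative ratios in both tables (tolerance 1e-06). Scores had to lie within 0.002 of it, or within 0.01 at absolute ratios above 6. Positive ratios were placed on the same curve by absolute ratio, so a control at the floor was assumed to follow it, which was not checked. Absolute log2 ratios under 1 could not be placed at the floor by this rule. Postn with JICD1 had a score of 0.297, against 0.247 on the curve. The finding of floor genes was checked on simulated data for constructs at the floor only, and genes flagged wrongly were not counted. The simulated list median was fixed in advance by how its values were made, so it checks nothing about the lists. The matching, naming and nearest-gene steps were not checked. Python 3.11.15, pandas 2.3.3, numpy 2.4.6 and matplotlib 3.10.9 were used.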

Additional observations from a re-analysis of the deposited data

How the results depend on the processing

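With a score of 0.9 or more in place of 0.8, 0 of the 8 genes were called with JICD1 and 1, Tnc, with NICD1. Counting an absolute log2 ratio of at least 1, whatever the score, gave 5 genes with JICD1, where 28.9% of all genes passed. Matching by the symbol column alone, which leaves Tnc, Thbs2 and Fn1, gave 1 called gene with JICD1, 1 with NICD1 and 3 for JICD1 minus NICD1. A difference of at least 2 between the constructs left 3 genes, Tnc, Thbs1 and Postn. The shares of all genes at a score of 0.9 and at a difference of 2 were not counted, so those counts have no background to be read against. The mean in place of the median was 1.58 for NICD1 over control and -2.66 for JICD1 minus NICD1. The other 14 settings of the medians and counts stayed within 0.1 on the log2 scale or within 1.5 times, but some of them could not have moved. None of the 8 genes was at the floor, so leaving out floor genes changed nothing. The medians of all genes were 0.05 with JICD1, -0.02 with NICD1 and 0.04 for the difference, so centring on them could not pass 0.1. Nor could centring change a sign among the 24 single-gene values, of which the smallest in absolute size was 0.15, for Fbln2 with JICD1. No paired analysis was possible because the tables hold no value per library, and leaving out a replicate was not run for the same reason.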

Other observations

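Among smooth muscle markers, Acta2, the smooth muscle actin gene, stood at -3.74 with JICD1 and 1.71 with NICD1, and Tagln, the transgelin gene, at -0.16 and 4.21, in the authors' deposited tables. Tagln, like Tnc, was near control with JICD1 and far above it with NICD1, but the rest of that list did not share this. With NICD1 the unscored Cnn1 (0.88) and Myh11 (0.54) lay above control and the unscored Des (-1.56) below it, in the authors' deposited table. Among fibroblast and pericyte markers, Col1a1 and Col3a1 stood at 1.74 and -3.31 with NICD1 in the authors' deposited table.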
